A study of Mus musculus with 4 samples.

Results

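Trace amine receptor neurons are the olfactory sensory neurons that express a trace amine-associated receptor (a Taar gene) in place of an odorant receptor (an Olfr gene). They were picked out by their unique molecular identifiers (UMIs, each marking 1 captured transcript). A cell barcode was taken when it had at least 500 detected genes, at most 10% of UMIs from mitochondrial genes, at least 5 UMIs of Omp (the olfactory marker protein of mature neurons), at least 3 UMIs of 1 gene from Taar2 to Taar9, and at most 15 UMIs of Cyp2g1, a cytochrome P450 of the supporting sustentacular cells. By this rule 138 of 41911 barcodes were Taar neurons, which is 138 of the 20775 barcodes that passed the same limits without the Taar condition. The data were 4 droplet libraries of the main olfactory epithelium, 1 library per sample, from wild-type C57BL/6J mice aged 3 months, 2 female and 2 male. The series belongs to work on neurexins and olfactory axon targeting. Cells were freed with papain and sequenced from the 5′ ends of their transcripts, and no gate or sort for Taar cells was described. Nothing in the labels says how many animals each library came from, so p-values apply to these libraries only.

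Taar receptors are G protein-coupled receptors that detect volatile amines, and all family members except Taar1 are olfactory receptors in the mouse. A Taar neuron, like an odorant receptor neuron, is known to express 1 receptor gene, signals through the olfactory G protein and the adenylyl cyclase Adcy3, and sends its axon to a small group of glomeruli in the dorsal olfactory bulb. Odorant receptors fall into class I, whose genes form a single cluster on chromosome 7, and class II, and the epithelium is divided into zones, with Nqo1 and Acsm4 marking the dorsal zone and Ncam2 and Nrp2 the rest.

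The libraries held between 100725429 and 111577458 UMIs in all, and the summed Taar neurons of a library between 283006 and 397148. In all, 895 barcode sequences occurred in more than 1 library. Among the 138 Taar barcodes, 7 were also seen in another library, and 0 were Taar neurons in more than 1 library. Of the names given to mark these cells, Taar6 led 24 neurons, Taar4 led 22, Omp was present in all 138 by the rule, and Taar5 led only 1. Summed over a fixed list of 12 genes, markers of mature neurons reached 26998 to 36974 counts per 1000000 UMIs (CPM) in the Taar neurons of the 4 libraries and 37237 to 39204 CPM in odorant receptor neurons. Sustentacular markers summed to 1367 to 4837 CPM in Taar neurons against 1660 to 2017 CPM. Immune and blood markers summed to 11.1 to 98.9 CPM against 209 to 398 CPM, and 5 of those 12 genes (Cd3e, Cd79a, Hba-a1, Ptprc and S100a8) were at 0 in Taar neurons. Microvillar cell markers summed to 25.2 to 68.6 CPM against 59.0 to 81.5 CPM, with 6 of 10 at 0 in Taar neurons. Markers of glia and stroma summed to 2446 CPM in the Taar neurons of female 1 and to 250 to 340 CPM in those of the other libraries, against 267 to 315 CPM, with Sox10 at 0. Markers of basal and cycling cells summed to 45.9 to 184 CPM against 98.4 to 141 CPM, with Mki67 at 0.

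Of the 15 Taar genes in the table, 13 led at least 1 neuron, while Taar1, which the rule did not use, and Taar8c had 0 UMIs in all barcodes. All lie on chromosome 10 of GRCm38, from Taar1 at 23920356 to the end of Taar9 at 24109534. Taar6 (chr10:23984609-23985646, minus strand) led 24 neurons, in the order female 1, female 2, male 1 and male 2 as 4, 7, 9 and 4. Taar4 (chr10:23960494-23961537, plus strand) led 22 neurons, of which 4, 2, 4 and 12 came from the same libraries. Taar7b led 21, with 10 in female 1 and 1 in male 2, so that the leading gene differed between libraries. Taar7f led 14, Taar7d led 11, Taar9 led 10, Taar7a led 9, Taar7e led 8, Taar2 led 7 and Taar3 led 6 neurons. Taar8b led 3 neurons and Taar8a led 2. The Taar7 and Taar8 genes are families of near-identical copies, so the split of neurons within each family is uncertain.

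**Figure D1:**
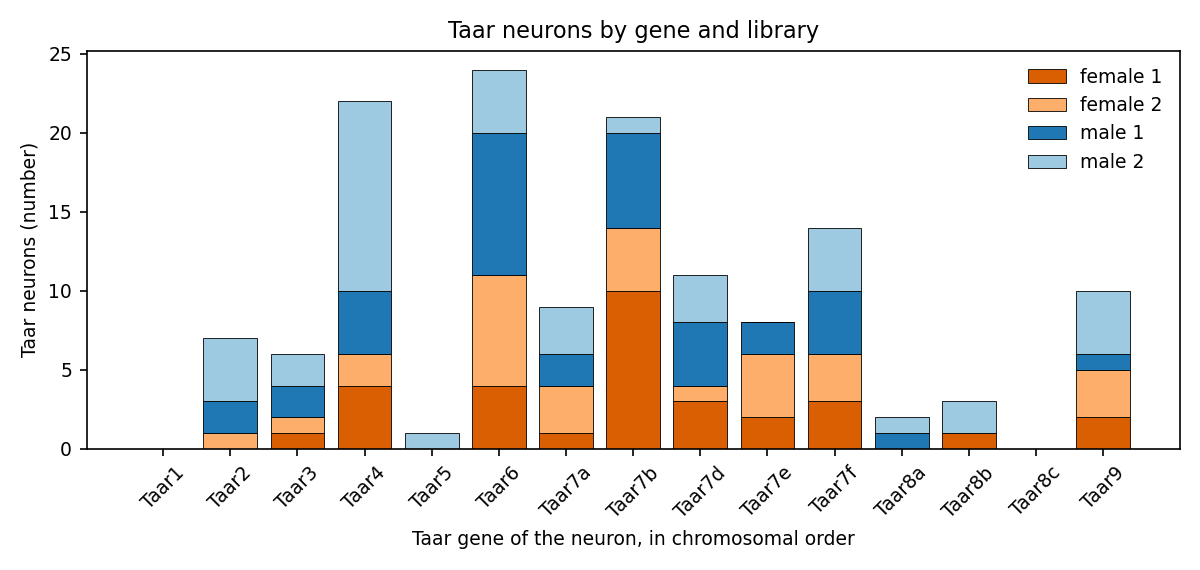
Number of Taar neurons led by each Taar gene (horizontal axis), with stacked bars for the 4 libraries (vertical axis, number of neurons). Taar6, Taar4 and Taar7b led 24, 22 and 21 neurons, and Taar5 led 1.

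The number of receptor UMIs per neuron differed between Taar genes. A Taar neuron held a median of 8.5 UMIs of its leading Taar gene, with quartiles of 5 and 14 and a range of 3 to 175. Taar2 neurons held a median of 129 UMIs and no fewer than 96, and Taar7a neurons a median of 58. Taar6 neurons held a median of 5, Taar7e neurons 4.5 and Taar4 neurons 12.5. These values chose the cells and are given as a description. At the threshold, 16 barcodes had exactly 3 UMIs and were taken, and 10 barcodes inside the other limits had 2 UMIs and were not. Of 170 barcodes with at least 3 Taar UMIs, 7 had fewer than 5 Omp UMIs (the highest had 2) and 25 had more than 15 Cyp2g1 UMIs (the lowest had 21, while the highest value in a Taar neuron was 9). UMIs of another Taar gene were rare: 4 of the 138 neurons held 1 such UMI each, and 3 of these were Taar5 UMIs in Taar4 neurons.

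Most Taar neurons held almost no odorant receptor transcripts. The median of all Olfr UMIs was 1 in a Taar neuron, 29 neurons had 0, and 89 had 1 or 2 UMIs of their highest Olfr gene. At least 3 UMIs of 1 Olfr gene were counted in 20 of 138 Taar neurons (14.5%, exact binomial 95% interval 9.08 to 21.5%), against 19862 of 20637 other barcodes inside the same limits (96.2%). These 20 neurons carried 19 different Olfr genes, reached 142 UMIs of 1 Olfr gene, and in 16 the Olfr gene had more UMIs than the Taar gene. They had a median of 17078.5 UMIs in all, against 8507.5 for the other Taar neurons, and 6 of them were among the 15 Taar neurons with a high doublet score. The part of mixed droplets in these values was not tested. In the other direction, 39 of 18284 odorant receptor neurons (0.213%) had a Taar UMI, while their highest Olfr gene had a median of 61 UMIs. Binomial intervals cover counting error only.

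**Figure D2:**
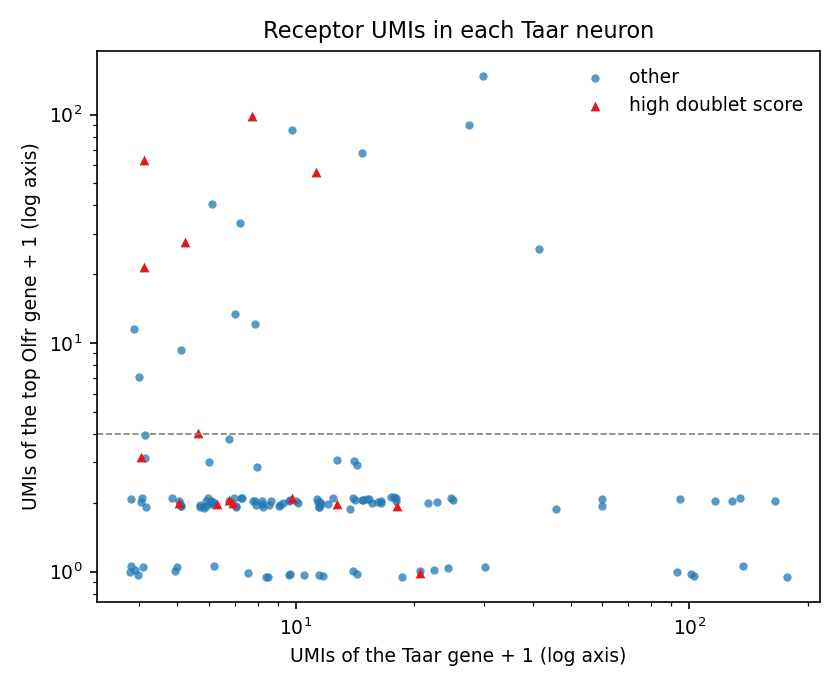
UMIs of the highest Olfr gene (vertical axis, UMIs + 1, log scale) against UMIs of the leading Taar gene (horizontal axis, UMIs + 1, log scale) in each of the 138 Taar neurons. The dashed line marks 3 UMIs of an Olfr gene, triangles mark a high doublet score, points are slightly spread to separate ties, and 20 neurons reach the line or lie above it.

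Taar neurons made up 0.592% of the barcodes inside the limits in female 1 (31 of 5235, exact binomial 95% interval 0.403 to 0.839%) and 0.570% in female 2 (29 of 5090, 0.382 to 0.817%). In the males they made up 0.724% (37 of 5110, 0.510 to 0.997%) and 0.768% (41 of 5340, 0.552 to 1.04%). Both male values lay above both female values, but all 4 intervals overlapped. The mean was 0.581 ± 0.0159% (SD, n = 2) in females and 0.746 ± 0.0309% (SD, n = 2) in males, a difference of 0.165 percentage points with p = 0.333 in a two-sided exact permutation test, the smallest value that 2 libraries against 2 allow.

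Gene expression of Taar neurons was compared between the sexes on UMI counts summed over the Taar neurons of each library. Of 8884 genes tested, 3 passed an adjusted p of 0.05 (0.0338%) in the quasi-likelihood test of edgeR, adjusted after Benjamini and Hochberg. Eif2s3y, a translation initiation factor gene on the Y chromosome, was at 0 CPM in both female libraries and at 90.6 and 85.1 CPM in males, as the labels have it. Zfp36l1, an RNA-binding protein that promotes mRNA decay, was at 161 and 237 CPM in female libraries and at 5.04 and 16.5 CPM in male ones (adjusted p = 0.00069). Nupr1, a stress-induced nuclear protein, was at 108 and 102 CPM against 5.04 and 8.23 CPM (adjusted p = 0.0011). For Zfp36l1 and Nupr1, 1 barcode held 48.1% and 52.1% of the UMIs of all Taar neurons. The number of genes passing was 0 without male 1 and 0 without male 2, 47 without female 1 and 122 without female 2. With the replicate number as a block it was 110, of which 22 were higher and 88 lower in males. An unadjusted p below 0.05 was reached by 601 genes, and DESeq2 called 4.

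Each Taar neuron was set against odorant receptor neurons of its own library, defined as barcodes inside the same limits whose highest Olfr gene had at least 3 UMIs and at least 80% of the Olfr UMIs. There were 18284 of these (4648, 4425, 4528 and 4683), of which 1254 expressed a class I receptor. Taar neurons were slightly deeper, with median UMIs per barcode of 10002, 8290, 9949 and 8462 against 8567, 8253, 8052.5 and 7771. The mean difference was 1015 UMIs, in the same direction in 4 of 4 libraries, with p = 0.125 in a two-sided exact permutation test of paired differences, the smallest that 4 pairs allow. Median mitochondrial shares averaged 1.46% in Taar neurons and 1.73% in odorant receptor neurons.

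Taar neurons differed from odorant receptor neurons in a small set of genes, led by the transcription factor Tbr1 and its neighbour Psmd14. In 8883 non-receptor genes with an average of at least 10 CPM, 188 passed (2.12%), 99 higher (1.11%) and 89 lower (1%) in Taar neurons, by the quasi-likelihood test of edgeR on UMI sums, with the library as a block and p-values adjusted after Benjamini and Hochberg, the test behind each adjusted p below. Of these, 87 were higher and 88 lower in 4 of 4 libraries. With no Cyp2g1 limit on the odorant receptor neurons, 605 genes passed. Among the 188, 13 had more than 33.3% of their Taar neuron UMIs in 1 barcode. Of those, 8 were higher, among them the bone and connective tissue genes Bglap, Sfrp4, Sparc, Spp1, Col1a1 and Col1a2, and a single Taar3 neuron of female 1 held 421 Bglap, 525 Col1a1 and 320 Sparc UMIs. They are not described further.

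Tbr1, a T-box transcription factor known from glutamatergic neurons of the cortex and the olfactory bulb, stood at 22.2, 38.9, 40.3 and 46.7 CPM in Taar neurons of female 1, female 2, male 1 and male 2. In odorant receptor neurons it stood at 0.147, 0.106, 0.216 and 0.296 CPM. Tbr1 reached the average of 10 CPM needed for a test only through Taar neurons, so at this level only a rise could be tested. The groups did not overlap, with means of 37.0 ± 10.5 CPM and 0.191 ± 0.0831 CPM (SD, n = 4), and the log2 fold change was 7.55 (SE 0.75, adjusted p = 4.43e-06). A Tbr1 UMI was counted in 42 of 138 Taar neurons (7, 10, 12 and 13 per library, 30.4%) and in 27 of 18284 odorant receptor neurons. At 2000 UMIs per barcode the expected shares were 6.54% and 0.0314%. No Taar neuron held more than 3 Tbr1 UMIs. Of 203 barcodes with a Tbr1 UMI in all libraries, 60 also had a Taar UMI.

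Psmd14, which encodes a deubiquitinating subunit of the proteasome lid, stood at 404, 477, 554 and 590 CPM in Taar neurons against 108, 105, 100 and 99.7 CPM in odorant receptor neurons. The log2 fold change was 2.28 (SE 0.11, adjusted p = 1.34e-10), again with no overlap. A Psmd14 UMI was present in 131 of 138 Taar neurons (94.9%) and in 54.0% of odorant receptor neurons. Psmd14 (chr2:61711694-61800376) and Tbr1 (chr2:61802930-61814114) lie on the plus strand of chromosome 2 with 2553 bases between them. Among the other genes within 1 Mb, 5 were tested and 0 passed. Rbms1 had a log2 fold change of -0.05 (adjusted p = 0.914), Tank 0.50 (adjusted p = 0.338), Gca 0.28 (adjusted p = 0.493), Ifih1 0.80 (adjusted p = 0.317) and Kcnh7 0.99 (adjusted p = 0.0616). Since the libraries read 5′ ends, the counts do not show whether any Psmd14 UMI comes from a transcript that runs on into Tbr1. Where the transcripts behind the Tbr1 UMIs start was not tested.

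**Figure D3:**
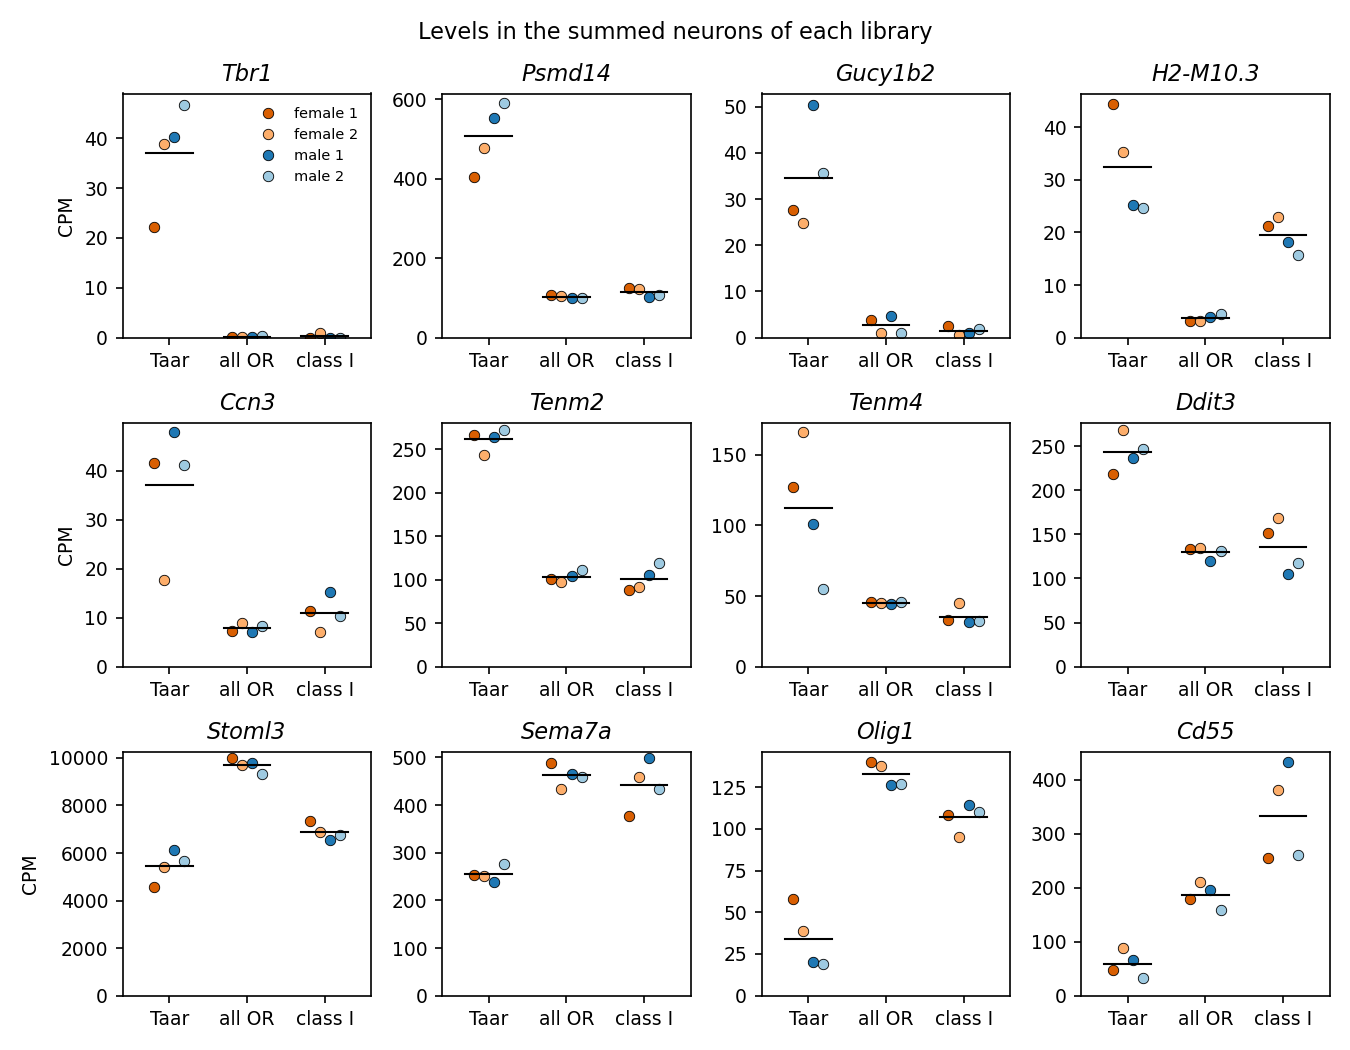
CPM of 12 genes in summed Taar neurons, all odorant receptor neurons and class I receptor neurons, with 1 point per library and a line at the mean of the 4 libraries. Tbr1 lies between 22.2 and 46.7 CPM in Taar neurons and at most 1.02 CPM in the other groups, and Stoml3 between 4588 and 6144 CPM in Taar neurons and at 6527 CPM or more in the others.

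Gucy1b2, H2-M10.3 and Ccn3 were low in both groups and higher in Taar neurons. Gucy1b2, a soluble guanylyl cyclase subunit known from a small set of olfactory neurons that lack an odorant receptor, stood at 27.7, 24.7, 50.4 and 35.7 CPM against 3.8, 1.12, 4.77 and 0.995 CPM (log2 fold change 3.87, SE 0.49, adjusted p = 0.000102). A Gucy1b2 UMI was found in 18 of 138 Taar neurons, and no neuron held more than 8. H2-M10.3, a non-classical MHC class I gene, stood at 44.3, 35.3, 25.2 and 24.7 CPM against 3.09, 3.17, 3.91 and 4.44 CPM (log2 fold change 3.13, SE 0.41, adjusted p = 0.000154). Ccn3, a secreted matricellular protein, stood at 41.6, 17.7, 47.8 and 41.2 CPM against 7.30, 8.86, 7.12 and 8.28 CPM (log2 fold change 2.24, SE 0.33, adjusted p = 0.000401). For all 3 genes the lowest Taar value lay above the highest odorant receptor value.

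Other genes among the 15 largest rises had log2 fold changes of 1.42 to 2.15. They included Acsm4, an acyl-CoA synthetase of the dorsal zone, at 272, 117, 204 and 381 CPM against 73.7, 68.5, 72.4 and 101 CPM (adjusted p = 9.54e-07). The cell adhesion molecule Lsamp rose by 2.15 (adjusted p = 0.0201), the exchange factor Tiam2 by 1.62 (adjusted p = 0.00212) and the potassium channel subunit Kcnmb4 by 1.47 (adjusted p = 0.00258). The growth factor Bmp6 rose by 1.44 (adjusted p = 0.000226) and the glypican Gpc1 by 1.42 (adjusted p = 0.000875). Glyatl3, an acyltransferase relative, rose by 2.05 (adjusted p = 0.0169), and without male 1 its adjusted p was 0.17. When both groups were limited to Nqo1-rich receptors, meaning those whose neurons together held more Nqo1 than Ncam2 UMIs, several of these genes did not pass. The log2 fold change was then 0.52 for Acsm4 (adjusted p = 0.0808), 1.12 for Tiam2 (adjusted p = 0.857), 0.18 for Kcnmb4 (adjusted p = 0.999), 0.14 for Bmp6 (adjusted p = 0.999), 0.32 for Gpc1 (adjusted p = 0.951) and 1.55 for Glyatl3 (adjusted p = 0.0991). Of 17 tested zone genes, 2 were higher (Acsm4 and Nrp2) and 2 lower (Nfix and Nqo1) against all odorant receptor neurons, with a median of 0.07. Of all genes, 1.11% were higher and 1% lower. Nqo1, a dorsal marker like Acsm4, stood at 294, 91.9, 85.6 and 217 CPM against 256, 233, 232 and 343 CPM, so that the groups overlapped (log2 fold change -0.68, SE 0.17, adjusted p = 0.0468). Its adjusted p was 0.15 without female 2, 0.323 without male 1 and 0.164 without male 2.

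Olig1 and Cd55 were among the genes that fell. Olig1, a basic helix-loop-helix transcription factor, stood at 58.2, 38.9, 20.1 and 19.2 CPM in Taar neurons against 140, 138, 126 and 127 CPM (log2 fold change -2.01, SE 0.20, adjusted p = 3.68e-06). Cd55, a complement regulator, stood at 47.1, 88.3, 65.5 and 32.9 CPM against 180, 211, 196 and 158 CPM (log2 fold change -1.72, SE 0.15, adjusted p = 6.95e-07). Every Taar value lay below every odorant receptor value for both genes. The cannabinoid receptor gene Cnr1 was down to 3 UMIs in all Taar neurons, at 2.77, 3.53, 2.52 and 0 CPM against 21.7, 20.3, 15.9 and 15.6 CPM (adjusted p = 0.00171). Fxyd2, a regulator of the sodium-potassium pump, likewise had 3 UMIs, at 0, 3.53, 2.52 and 2.74 CPM against 7.13, 22.6, 10.9 and 32.6 CPM (adjusted p = 0.00205). Cnr1 and Fxyd2 reached the average of 10 CPM needed for a test only through odorant receptor neurons, so the filter favoured a fall. Pdlim1, an actin-associated protein, fell by 2.09 (adjusted p = 0.000145), the protocadherin Pcdh11x by 2.27 (adjusted p = 0.00329), and the anchored adhesion protein Mdga2 by 1.86 (adjusted p = 0.00742) on the log2 scale. Among Nqo1-rich receptors Pdlim1 had a log2 fold change of 1.49 that did not pass, and among Nqo1-poor ones Pcdh11x had -1.96 (adjusted p = 0.191).

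Several of the 15 largest falls rested on few odorant receptor barcodes. Haemoglobin Hbb-bs stood at 8.31, 21.2, 15.1 and 11 CPM in Taar neurons against 168, 211, 112 and 135 CPM (log2 fold change -3.50, adjusted p = 2.12e-09), but 93.1% of its odorant receptor UMIs lay in the top 1% of barcodes. Without barcodes holding 5 or more UMIs of immune, blood, glial and stromal markers its log2 fold change was 0.16. The airway secretory protein Bpifa1 (log2 fold change -2.62, adjusted p = 2.04e-10) and the antimicrobial lectin Reg3g (-2.19, adjusted p = 1.23e-06) had 80.7% and 77.9% of their odorant receptor UMIs in the top 1% of barcodes. Of 12 genes of the immune and blood list, 4 were tested and all 4 were lower, with a median log2 fold change of -3.74. The average of 10 CPM needed for a test covers both groups, so these genes could enter through odorant receptor neurons. Their count therefore cannot be read against the 1% of all genes that were lower. The part of rare mixed barcodes in these falls was not tested for each gene. Among falls with low counts, Cntfr had an adjusted p of 0.0555 without male 2, Iqgap2 of 0.0659 without male 1, Rarb of 0.179 without male 1 and Plxnb3 of 0.173 without male 2.

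**Figure D4:**
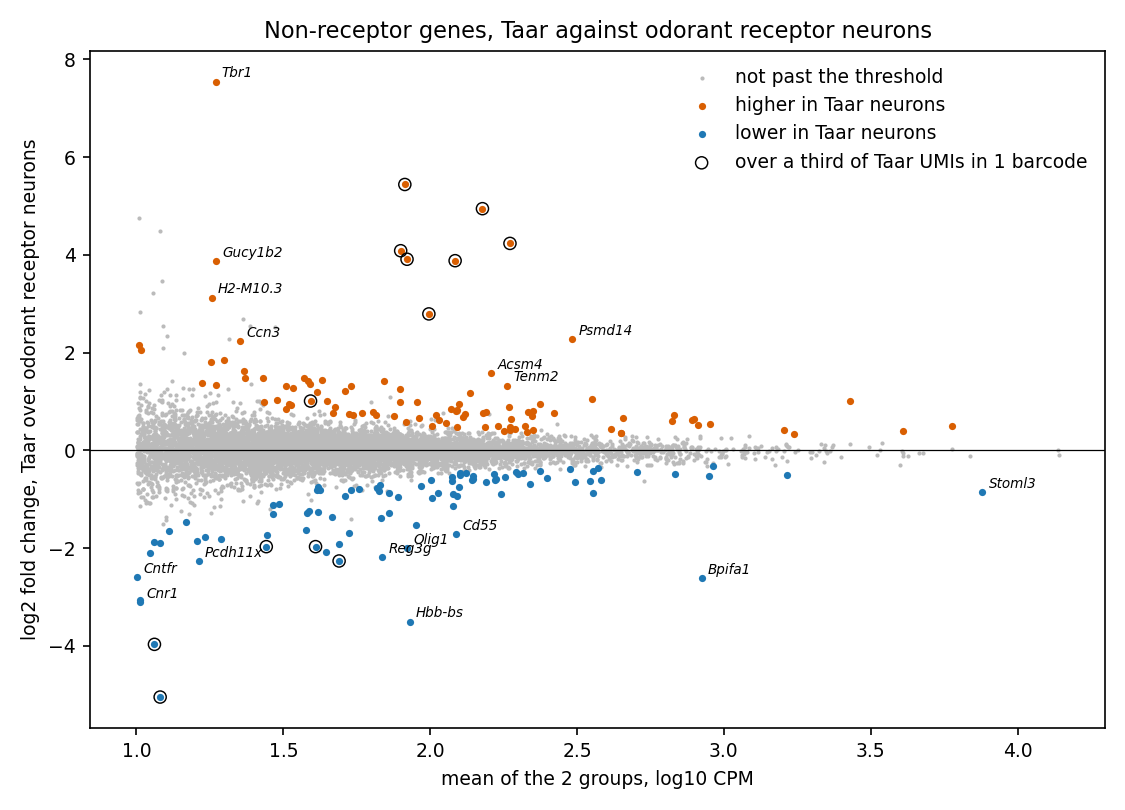
Log2 fold change of Taar against odorant receptor neurons (vertical axis) against the mean level (horizontal axis, log10 CPM) for the 8883 tested genes. Coloured points are the 188 genes that passed, circles mark genes with more than 33.3% of the Taar neuron UMIs in 1 barcode, and Tbr1 at 7.55 and Psmd14 at 2.28 are labelled among others.

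Of 21 tested olfactory transduction genes, 0 were higher and 1 was lower, where 2.12% of all genes passed, with a median log2 fold change of -0.05 against 0.01 for all genes. The member that fell was Stoml3, a stomatin-family protein of olfactory cilia, at 4588, 5424, 6144 and 5662 CPM in Taar neurons against 9999, 9691, 9794 and 9323 CPM (log2 fold change -0.85, SE 0.08, adjusted p = 4.06e-06). The G protein subunit Gnal had a log2 fold change of 0.15 (SE 0.08, adjusted p = 0.452), the cyclase Adcy3 of -0.18 (SE 0.07, adjusted p = 0.317), the channel subunit Cnga2 of -0.05 (SE 0.08, adjusted p = 0.89) and Cnga4 of -0.32 (SE 0.10, adjusted p = 0.122). A p above the threshold does not show that these levels are equal. Among 15 tested genes of receptor transport and the unfolded protein response, 2 were higher and 0 lower, with a median of 0.07. Ddit3, a stress-induced transcription factor, stood at 219, 269, 237 and 247 CPM against 133, 134, 120 and 131 CPM (log2 fold change 0.89, SE 0.10, adjusted p = 1.65e-05). Trib3, a pseudokinase target of that response, rose by 1.31 (adjusted p = 0.000401). The receptor transporter Rtp1 had a log2 fold change of 0.23 (adjusted p = 0.232) and the transcription factor Atf5 of 0.07 (adjusted p = 0.79).

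Of 25 tested regulators of receptor choice and chromatin, 0 were higher and 2 lower, where 2.12% of all genes passed, with a median log2 fold change of 0.02. The number lower was 1 without male 1, 1 without male 2, 4 without female 1, and 5 without the 20 neurons that had an Olfr gene at 3 UMIs. Lhx2 and Ldb1, the partners that bind odorant receptor enhancers, had log2 fold changes of 0.02 (SE 0.09, adjusted p = 0.955) and -0.21 (SE 0.13, adjusted p = 0.589), and Ebf1 of -0.23 (adjusted p = 0.33). The falls were in nuclear factor I genes that are known to follow the zones. Nfix stood at 88.7, 148, 176 and 85.1 CPM against 237, 222, 242 and 199 CPM (log2 fold change -0.88, adjusted p = 0.000803), and Nfib fell by 0.74 (adjusted p = 0.0128), with an adjusted p of 0.097 without male 2 and 0.0784 without male 1. When only neurons of receptors rich in Nqo1 were compared, the log2 fold change was -0.36 for Nfix (adjusted p = 0.908) and -0.03 for Nfib (adjusted p = 0.999). Among Nqo1-poor receptors both genes were lower in Taar neurons and passed.

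Of 33 tested genes for axon guidance and sorting, 5 were higher and 5 lower in Taar neurons, where 1.11% of all genes were higher and 1% lower, and the median log2 fold change was -0.03. The teneurin Tenm2, a large adhesion protein that matches axons and targets, stood at 266, 244, 264 and 272 CPM against 101, 97.6, 104 and 112 CPM (log2 fold change 1.32, SE 0.09, adjusted p = 3.38e-08). Tenm4 stood at 127, 166, 101 and 54.9 CPM against 45.6, 45.2, 44.2 and 45.5 CPM (log2 fold change 1.26, SE 0.18, adjusted p = 0.000401). Neither gene's groups overlapped. The protocadherin Pcdh17 rose by 0.94 (adjusted p = 0.000558) and the netrin receptor Unc5b by 0.76 (adjusted p = 0.000218). Nrp2, a semaphorin receptor, rose by 0.65 (adjusted p = 0.0366), but its adjusted p was 0.329 without male 1, 0.0759 without female 1 and 0.0717 without female 2.

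Sema7a, a membrane-anchored semaphorin of olfactory axons, stood at 252, 251, 239 and 277 CPM against 489, 434, 466 and 459 CPM, so that the groups did not overlap (log2 fold change -0.88, SE 0.09, adjusted p = 1.11e-05). The ephrin receptor Epha5 fell by 0.63 (adjusted p = 0.000998). Among Nqo1-rich receptors the log2 fold change was -0.54 for Sema7a (adjusted p = 0.114) and -0.06 for Epha5 (adjusted p = 0.999). Among Nqo1-poor receptors both genes were lower in Taar neurons and passed. The axon sorting molecules Kirrel3 and Kirrel2 fell by 0.87 (adjusted p = 0.00257) and 0.52 (adjusted p = 0.00424), and Pcdh10 by 1.29 (adjusted p = 0.0148). Without male 1 the adjusted p of Kirrel2 was 0.106, and without male 2 that of Pcdh10 was 0.0998. These 3 falling genes are also on the list of activity-linked genes. Of 14 tested there, 4 were lower and 0 higher, where 1% of all genes were lower and 1.11% higher, with a median of -0.18. The immediate early gene Nr4a1 was the fourth, falling by 0.87 (adjusted p = 0.0016).

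Of 28 tested synaptic organisers and release genes, a list that includes neurexins, 1 was higher and 0 lower, where 2.12% of all genes passed, with a median log2 fold change of -0.07. The neurexin Nrxn2 stood at 36.0, 10.6, 12.6 and 8.23 CPM in Taar neurons against 18.7, 19.3, 17.8 and 19.5 CPM (log2 fold change -0.17, SE 0.34, adjusted p = 0.919), and the groups overlapped. Nrxn3 had 0 UMIs in 138 Taar neurons, which allows up to 2.17% of neurons with a UMI and up to 2.13 CPM at a floor of 3 counts. It averaged 0.465 CPM in odorant receptor neurons, below that limit, so the 0 does not show a lower level. The gene that passed, the receptor phosphatase Ptprd, stood at 47.1, 49.5, 12.6 and 5.49 CPM against 7.86, 7.72, 6.28 and 7.15 CPM, with overlap in male 2, and its adjusted p of 0.0264 became 0.2 without female 2 and 0.0557 without male 1.

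Receptor-linked genes, a list drawn from earlier results on these libraries and so not independent of them, had 4 of 16 tested genes higher and 5 lower. Of all genes, 1.11% were higher and 1% lower, and the median of the list was -0.04. The number of receptor-linked genes higher was 2 without male 1 and 2 without male 2. Mslnl, a mesothelin relative, rose by 0.61 (adjusted p = 0.000239), and Cidea, a lipid droplet protein, fell by 1.15 (adjusted p = 0.0016). Among Nqo1-rich receptors Cidea had a log2 fold change of 1.97 (adjusted p = 0.0683), and among Nqo1-poor ones it was lower and passed. Of 15 tested immature neuron genes 4 were higher and 0 lower, where 1.11% of all genes were higher, with a median log2 fold change of 0.35. Gap43, a growth cone protein, stood at 402, 272, 254 and 217 CPM against 154, 171, 149 and 169 CPM (log2 fold change 0.81, adjusted p = 0.000546), and Stmn2, a microtubule regulator, rose by 0.60 (adjusted p = 0.000319). The whole list summed to 6793, 5226, 4422 and 4520 CPM in Taar neurons against 4236, 4252, 4005 and 4289 CPM. Gap43 and Stmn2 no longer passed with a minimum of 5 Taar UMIs, and 0 of the 15 passed without the 20 neurons that had an Olfr gene at 3 UMIs. Of 4 tested genes of amine metabolism 0 passed.

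Taar neurons and class I receptor neurons both are known to lie mainly in the dorsal epithelium, so the comparison was repeated against the 1254 class I neurons (272, 264, 268 and 450 per library). Of 8858 genes, 288 passed (3.25%), 156 higher (1.76%) and 132 lower (1.49%) in Taar neurons. DESeq2 called 126, and without male 1 the number was 157 and without male 2 it was 179. Tbr1 stood at 0, 1.02, 0 and 0 CPM in class I neurons and passed (adjusted p = 4.58e-07), again entering the test only through Taar neurons. Psmd14 was higher by 2.12 (adjusted p = 5.94e-10), Gucy1b2 by 4.39 (adjusted p = 3.94e-06), Tenm2 by 1.34 (adjusted p = 1.1e-07) and Trib3 by 1.84 (adjusted p = 1.34e-05) on the log2 scale. H2-M10.3, higher against all odorant receptor neurons, had a log2 fold change of 0.69 here and did not pass (adjusted p = 0.227).

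Zone genes separated Taar neurons from class I neurons. Nqo1, the quinone reductase that marks the dorsal zone, stood at 294, 91.9, 85.6 and 217 CPM in Taar neurons against 1827, 1654, 1899 and 1643 CPM in class I neurons (log2 fold change -3.43, SE 0.20, adjusted p = 4.52e-10). Ncam2, the cell adhesion molecule that marks the other zones, stood at 202, 216, 217 and 143 CPM against 36.9, 38.1, 42.4 and 29.7 CPM (log2 fold change 2.36, SE 0.13, adjusted p = 4.52e-10). Nrp2 stood at 352, 244, 252 and 90.6 CPM against 43.5, 48.2, 43.9 and 33.6 CPM (log2 fold change 2.37, SE 0.17, adjusted p = 1.84e-08). None of the 3 pairs of groups overlapped. Nfix was higher by 2.09 (adjusted p = 2.83e-07), and Acsm4 and the axon receptor Robo2 fell by 1.02 (adjusted p = 0.000418) and 1.10 (adjusted p = 0.000148). In all, 4 of 17 tested zone genes were higher and 3 lower, where 1.76% of all genes were higher and 1.49% lower.

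Against class I neurons the metabolic gene Me1 fell by 2.73 (adjusted p = 0.000176), the granin Scg2 fell by 2.85 (adjusted p = 0.000265), Cd55 by 2.56 (adjusted p = 4.52e-10) and the acyltransferase Mboat1 by 2.24 (adjusted p = 2.22e-05). The formin Fmn1 was higher by 2.64 (adjusted p = 0.00222), Tiam2 by 2.6 (adjusted p = 7.09e-05), Sytl1, a synaptotagmin-like trafficking protein, by 2.34 (adjusted p = 3.1e-06) and Mslnl by 1.48 (adjusted p = 1.07e-08). Of 14 tested activity-linked genes 9 were lower and 1 higher, where 1.49% of all genes were lower and 1.76% higher. Their median was -0.54 against 0.01 for all genes. The number lower was 5 without female 2, 5 without male 1 and 4 without male 2. Fos stood at 551, 767, 453 and 840 CPM in Taar neurons against 1016, 1550, 1466 and 1404 CPM (log2 fold change -1.10, SE 0.12, adjusted p = 7.62e-06). Of 15 tested immature neuron genes 7 were higher and 0 lower, where 1.76% of all genes were higher, with a median of 0.60. The number higher was 3 without female 1, 4 without female 2, 2 without male 2, and 1 without the 20 Taar neurons that had an Olfr gene at 3 UMIs. Stoml3 was lower by a smaller amount here, with a log2 fold change of -0.37 (adjusted p = 0.0407) that did not pass without female 2, without male 1 or without male 2.

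A zone-matched comparison used only barcodes with more Nqo1 than Ncam2 UMIs, which left 34 Taar neurons (9, 6, 4 and 15) and 2030 class II neurons (435, 472, 497 and 626). In it 36 of 8706 genes passed (0.414%), 12 higher (0.138%) and 24 lower (0.276%), and DESeq2 called 13. Psmd14 stood at 488, 474, 743 and 551 CPM against 128, 110, 116 and 119 CPM (log2 fold change 2.08, SE 0.18, adjusted p = 5.23e-26). Tbr1, at 11.9, 45.1, 0 and 73.4 CPM in Taar neurons, also passed (adjusted p = 9.09e-05). The Taar sums held only 84011, 44349, 28271 and 136223 UMIs, so these Tbr1 levels rest on few UMIs, with 0 in male 1. Whether the Tbr1 call holds without each library is not given here. Stoml3 stood at 5190, 2480, 2759 and 3817 CPM against 9871, 9365, 8917 and 8710 CPM (log2 fold change -1.52, SE 0.15, adjusted p = 3.15e-20). The groups did not overlap for Psmd14 and Stoml3. Against all odorant receptor neurons Psmd14 had a smaller SE (0.11) but a larger adjusted p (1.34e-10). The size of an adjusted p therefore does not rank the comparisons. Tmbim6, an anti-apoptotic membrane protein of the endoplasmic reticulum, rose by 0.72 (adjusted p = 0.000339), and the calcium buffer Calb2 fell by 2.09 (adjusted p = 1.48e-16). Me1 had 0 UMIs in the 34 Taar neurons against 29.4 ± 9.34 CPM (SD, n = 4), at least 2.87-fold lower at a floor of 3 counts over the group, but it lost its call without any 1 of the 4 libraries. Me1 entered this test only through the class II neurons.

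Among the other genes of the zone-matched comparison, Cd55 fell by 1.87 (adjusted p = 5.58e-06) and kept its call without each library. Acss2, an acetyl-CoA synthetase, rose by 0.96 (adjusted p = 0.000387), with an adjusted p of 0.0741 without female 2. Tenm2 rose by 1.17 (adjusted p = 0.000516), with adjusted p of 0.106 without male 1 and 0.0615 without male 2, and Kirrel3 fell by 1.61 (adjusted p = 0.00155), with 0.134 without male 2. Of the 20 genes with the largest changes, 6 kept their call without each library. Gucy1b2 had a log2 fold change of 4.18 (adjusted p = 0.138), Ccn3 of 2 (adjusted p = 0.44) and Acsm4 of 0.39 (adjusted p = 0.833), none of which passed. Of 31 tested axon genes 1 was higher and 2 lower, where 0.138% of all genes were higher and 0.276% lower. None of the axon genes passed without male 1 or without male 2. Of 25 tested synaptic genes 0 passed, while the median of all genes was -0.08.

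Zone was also approached by receptor rather than by cell, which matches it only in part. A receptor was called Nqo1-rich when its neurons together held more Nqo1 than Ncam2 UMIs, and Nqo1-poor otherwise. Taar4, Taar7d, Taar7f, Taar8a and Taar8b and 19 class II receptors were Nqo1-rich, and 234 class II receptors were Nqo1-poor. Taar4 neurons held 54 Nqo1 and 27 Ncam2 UMIs. Of these, a neuron of female 1 held 21 and 0, and a neuron of male 2 held 14 and 2. Their highest Olfr genes had 58 and 67 UMIs, more than their Taar genes. Without these neurons Taar4 would not be Nqo1-rich, and the comparison was not run in that form. This sorting of receptors was chosen after the data were seen, and Nqo1 and Ncam2 are not tested in it. Taar2 (1 against 1), Taar5 (0 against 0) and Taar9 (9 against 9) held equal numbers of both UMIs and were set on the Nqo1-poor side. Among Nqo1-rich receptors (11, 6, 13 and 22 Taar neurons) 106 of 8688 genes passed (1.22%), 47 higher (0.541%) and 59 lower (0.679%), and among Nqo1-poor receptors (20, 23, 24 and 19) 151 of 8883 (1.7%), 85 higher (0.957%) and 66 lower (0.743%). Psmd14 was higher by 2.55 (adjusted p = 1.22e-54) and 2.06 (adjusted p = 1.91e-06), and Tbr1 by 6.35 (adjusted p = 9.91e-09) and 7.62 (adjusted p = 0.000228) on the log2 scale. Stoml3 was lower in both, at -1 (adjusted p = 1.74e-18) and -0.76 (adjusted p = 0.00424), and Tenm2 higher, at 1.31 (adjusted p = 1.98e-07) and 1.58 (adjusted p = 2.16e-06).

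Acsm4 had a log2 fold change of 0.52 (adjusted p = 0.0808) among Nqo1-rich and 4.98 (adjusted p = 7.04e-08) among Nqo1-poor receptors. The Nqo1-poor side holds the tied receptors Taar2 and Taar9, whose neurons often held Acsm4, so it was not matched for the dorsal zone. Calb2 was lower among Nqo1-rich receptors, at -3.03 (adjusted p = 7.58e-47), and higher among Nqo1-poor ones, at 0.73 (adjusted p = 0.00128). Kirrel3 stood at -2.06 (adjusted p = 5.48e-08) and -0.50 (adjusted p = 0.324). The differences between the sides were not tested. Of 21 tested transduction genes, 3 were higher (Ano2, Pde4a and Ric8b) and 1 lower among Nqo1-rich receptors, and 0 higher and 1 lower among Nqo1-poor ones. Of all genes, 0.541% were higher and 0.679% lower among Nqo1-rich receptors, and 0.957% and 0.743% among Nqo1-poor ones. Immature neuron genes passed in 0 of 15 tested among Nqo1-rich and in 2 of 15 among Nqo1-poor receptors.

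Taar neurons with different receptor genes differed among themselves in zone genes. Nqo1 was counted in 10 of 22 Taar4 neurons, 7 of 11 Taar7d neurons and 10 of 14 Taar7f neurons, but in 0 of 24 Taar6, 1 of 21 Taar7b and 1 of 9 Taar7a neurons. Nrp2 showed the opposite order, in 21 of 24 Taar6, 18 of 21 Taar7b and 8 of 9 Taar7a neurons against 6 of 22 Taar4, 3 of 14 Taar7f and 0 of 7 Taar2 neurons. Taar7d neurons held both, with Nrp2 in 10 of 11. Acsm4 was counted in 20 of 22 Taar4, 8 of 10 Taar9 and 7 of 7 Taar2 neurons against 5 of 24 Taar6, 3 of 21 Taar7b and 2 of 9 Taar7a neurons. Thus the neurons of Taar6, Taar7a and Taar7b shared low Nqo1 and Acsm4 and high Nrp2. Ncam2 also leaned towards these receptors, with a UMI in 21 of 24 Taar6 and 14 of 22 Taar4 neurons. Its UMIs numbered 61 in 24 Taar6, 63 in 21 Taar7b and 21 in 9 Taar7a neurons. They numbered 27 in 22 Taar4, 13 in 11 Taar7d and 1 in 7 Taar2 neurons. With 34 Ncam2 UMIs in 14 neurons, Taar7f did not follow the order of Nrp2.

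Only Taar4, Taar6 and Taar7f had at least 2 neurons in each library, and a test among these 3 (12 sums, library as a block) called 45 of 7168 genes (0.628%) by the F test of edgeR, adjusted after Benjamini and Hochberg. The number was 28 without male 1 and 28 without male 2. Zone genes made up 5 of the calls out of 14 tested (Calb2, Nqo1, Acsm4, Nrp2 and Nfix), immature neuron genes 7 of 15, activity-linked genes 5 of 14, transduction genes 1 of 21 and synaptic genes 0 of 26. Nqo1 stood at 460, 0, 176 and 233 CPM in Taar4 neurons, at 0 in all 4 libraries in Taar6 neurons and at 964, 499, 277 and 1004 CPM in Taar7f neurons (adjusted p = 2.06e-21). Of the Taar4 neurons, 1 of female 1 held 21 Nqo1 UMIs and 1 of male 2 held 14. Their highest Olfr genes had 58 and 67 UMIs, more than their Taar genes. The test between Taar genes was not run without such neurons. Acsm4 stood at 421, 188, 661 and 492 CPM, at 0, 14.2, 74.6 and 0 CPM, and at 551, 399, 346 and 304 CPM in the same order of receptors (adjusted p = 8e-12). For Acsm4, Taar6 neurons lay apart from both other groups in 4 of 4 libraries.

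Genes linked to receptor identity in other olfactory neurons also differed between these 3 receptors. The neuropeptide gene Cartpt stood at 1915, 1439, 1938 and 2058 CPM in Taar4 neurons, at 514, 355, 216 and 143 CPM in Taar6 neurons and at 2111, 2944, 1016 and 1460 CPM in Taar7f neurons (adjusted p = 1.02e-25). Calb2 stood at 0, 866, 1306 and 1203 CPM in Taar6 neurons, while 2 of 22 Taar4 and 1 of 14 Taar7f neurons had a UMI (adjusted p = 7.37e-33). Mslnl stood at 1946, 1562, 1231 and 1719 CPM in Taar6 neurons, above 594, 1001, 749 and 913 CPM in Taar4 neurons and 643, 649, 508 and 578 CPM in Taar7f neurons (adjusted p = 1.05e-08). Ptn, a secreted growth factor, stood at 808, 398, 478 and 688 CPM in Taar6 neurons and at 192, 188, 132 and 143 CPM in Taar4 neurons (adjusted p = 2.95e-12). For Cartpt, Mslnl and Ptn, the Taar6 and Taar4 values did not overlap.

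Stoml3 varied among Taar receptors as well. It stood at 11568, 5651, 7941 and 11660 CPM in Taar6 neurons against 4750, 4067, 2731 and 2935 CPM in Taar4 neurons and 1974, 2345, 5125 and 2737 CPM in Taar7f neurons (adjusted p = 1.13e-20). Psmd14 did not pass among these receptors (adjusted p = 1) and ranged from 260 CPM in Taar3 to 828 CPM in Taar7d neurons over all 13 genes. S100a5, a calcium-binding protein whose level is known to follow activity, ranged from 900 CPM in Taar7a neurons to 52762 CPM in the 2 Taar8a neurons. Gucy1b2 was uneven, with a UMI in 5 of 9 Taar7a, 7 of 11 Taar7d and 2 of 3 Taar8b neurons, but in 0 of 22 Taar4, 0 of 21 Taar7b and 0 of 14 Taar7f neurons. Tbr1 was counted in neurons of every leading gene except Taar5, which had a single neuron.

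**Figure D5:**
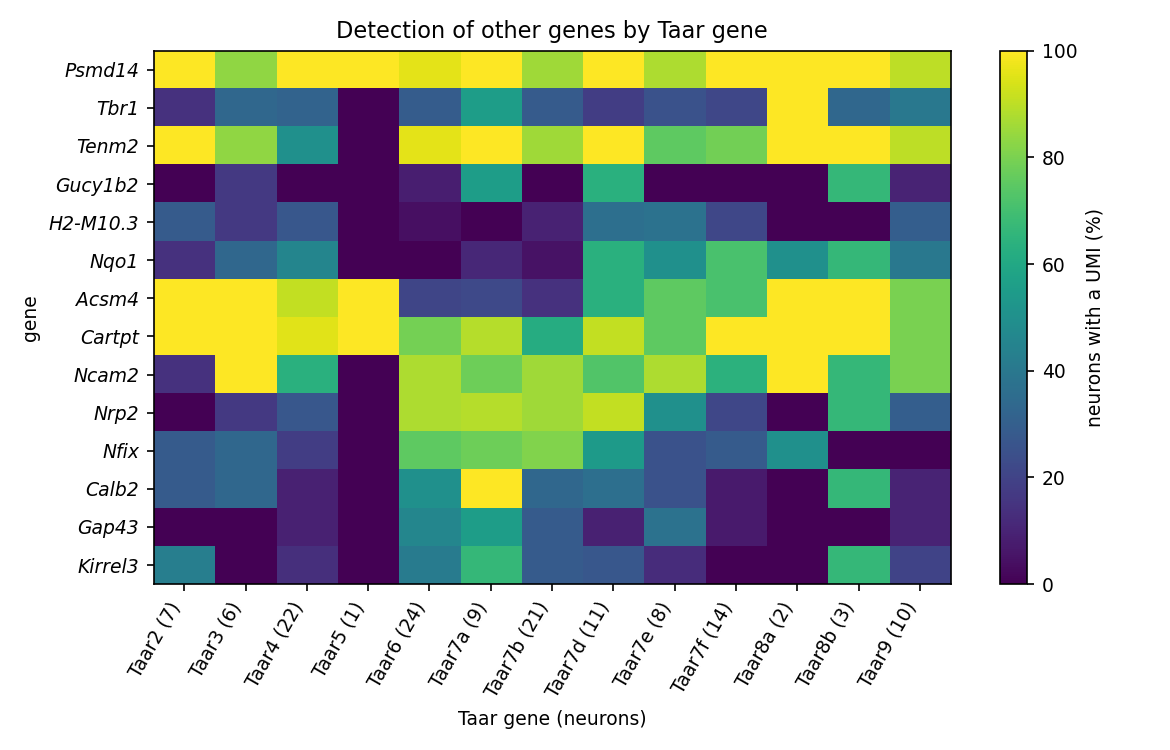
Share of neurons with at least 1 UMI (colour, percent) of 14 genes (rows) in the neurons of each of 13 Taar genes (columns, with the number of neurons). Psmd14 is high in all columns, Nqo1 is at 0 in Taar6 and low in Taar7a and Taar7b, and Nrp2 is high in those columns and in Taar7d.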

How the data were processed

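UMI counts of 22399 genes per cell barcode were measured in 4 libraries. The deposited matrices hold whole-number UMI counts written by Cell Ranger 6.0.2, per the file headers, while the submitters' processing notes name Cell Ranger 5.0.1 and mm10. How reads matching several near-identical genes were counted is not given in the sources used here. Of the gene IDs, 22285 were matched to GENCODE M21 (GRCm38) for coordinates. The members and gene lists were chosen with earlier results of these data known.

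Barcodes were kept, gated and grouped as the text states, with the Cyp2g1 limit applied to both groups. Doublets were scored against 2 simulated doublets per barcode and kept, and their removal (0.8% per 1000 barcodes) was an alternative. UMIs were summed per library and group and tested with edgeR 4.0.16 (TMM scaling, quasi-likelihood, R 4.3.3), with Benjamini-Hochberg adjustment at 0.05 and the library as a block, except between sexes. Levels are counts per 1000000 UMIs of a sum (CPM), averaged over libraries with equal weight. Genes needed an average of 10 CPM over both groups (between Taar genes, a mean of 1 UMI per sum). A gene near 0 in 1 group thus entered only through the other, which fixed its direction beforehand. Standard errors were derived from the F statistic. The test shares the estimate of spread over genes, so a very small adjusted p does not measure a gene's own spread between libraries. Receptor, vomeronasal and mitochondrial genes, Omp and Cyp2g1 were not tested. Named genes were the 15 largest rises and falls (10 in the class I and zone-matched comparisons) that passed, moved the same way in 4 of 4 libraries and had at most 33.3% of Taar UMIs in 1 barcode, plus any gene of the lists. DESeq2 1.42.0, other scalings, filters, gates, depth matching and leaving out libraries were the alternatives. Tested on simulated data with 200 changed genes, the main comparison recovered 67% of 2-fold and 93% of 4-fold changes, and 7.51% of its calls were false. The zone-matched comparison recovered 26% and 68%, and the comparison of Taar genes 3% and 28%. Some genes of the lists and of the named set are not reported here.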

Additional observations from a re-analysis of the deposited data

Results flagged for a closer look

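In 3 of the 70 groups of library values looked at in the comparison with odorant receptor neurons, a single library stood apart, and chance alone sets apart about 1 in 20 groups. Acss2 reached 258 CPM in the Taar neurons of male 2, while the other libraries lay between 172 and 180.2 CPM. Bpifa1 reached 343 CPM in female 2 against 191 to 214 CPM. Plxnb3 reached 10.1 CPM in male 1 against 2.74 to 3.53 CPM.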

How the results depend on the processing

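The number of genes differing between Taar and odorant receptor neurons (188) was 335 under edgeR's filterByExpr, 605 without the Cyp2g1 limit on the odorant receptor neurons, 106 among Nqo1-rich receptors, and 128 to 211 when each library was left out. Against class I neurons (288) it was 126 with DESeq2, 172 with at least 5 Taar UMIs, 945 without the Cyp2g1 limit, and 157 to 271 with a library left out. In the zone-matched comparison (36) it was 17 at an average of 30 CPM, 13 with DESeq2, 23 with at least 5 Taar UMIs, 423 without the Cyp2g1 limit, and 19 to 44 with a library left out. Among Taar genes (45) it was 161 with at least 1 neuron per library and 28 to 41 with a library left out. Why these numbers differed was not tested. The share of Taar neurons by sex and the depth difference kept their direction in every alternative run.

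The labels do not say that a replicate number marks a shared source, and with only 2 pairs the correlation of same-numbered deviations (0.42 in both) cannot show whether the numbers pair the libraries. With the replicate number as a block, 110 genes differed between the sexes in place of 3. In the main model, which has no such block, the number was 0 to 122 with 1 library left out. Each of those fits has only 1 library of the reduced sex, so the range does not bear on the blocked result. With the library left out of the block, 14 genes passed in the zone-matched comparison.

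Of the 30 genes chosen by size of change against odorant receptor neurons, 10 passed under every alternative in which they were tested, among them Tbr1, Gucy1b2, H2-M10.3, Psmd14, Ccn3, Lsamp, Cnr1, Bpifa1 and Olig1. In the main test Tbr1, Gucy1b2, H2-M10.3 and Ccn3 reached the average of 10 CPM only through Taar neurons, and Cnr1 only through odorant receptor neurons. Among Nqo1-rich receptors the log2 fold change reversed for Snd1 (-0.23), Pdlim1 (1.49), Cartpt (-0.29) and Cidea (1.97), and that of Hbb-bs was 0.16 without barcodes holding immune, blood, glial or stromal markers. Avp, higher in the zone-matched comparison, was between -10.13 (without female 1) and 5.73 (without male 2) with a library left out, and turned to -9.73 with at least 5 Taar UMIs, -9.70 without high doublet scores and -9.36 without barcodes of other markers. The zone-matched and between-receptor tests rest on the fewest neurons, and the few Tbr1 UMIs per neuron do not show which neurons lack it.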

Other observations

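Tbr1 was also counted in neurons that held neither kind of receptor, a group looked at after the data were seen and given without a test. Inside the gene, mitochondrial, Omp and Cyp2g1 limits, 775 barcodes had no Olfr or Taar gene at 3 UMIs, and 35 of these had at least 3 UMIs of Gucy1b2, the guanylyl cyclase subunit, with a median of 67. In these 35 barcodes Gucy1b2 stood at 5662, 5251, 6648 and 5678 CPM in female 1, female 2, male 1 and male 2, and Tbr1 at 53.7, 18.4, 11.4 and 74.1 CPM, with a Tbr1 UMI in 14 of 35. Psmd14 stood at 336, 312, 477 and 333 CPM and Stoml3 at 1154, 1359, 1917 and 815 CPM. In the 732 barcodes with no receptor at 3 UMIs and 0 Gucy1b2 UMIs, Tbr1 stood at 3.48, 6.57, 5.59 and 7.89 CPM. H2-M10.3 had 0 UMIs in the 35 barcodes, which differ in this from Taar neurons. Among Taar neurons, 9 held 3 or more Gucy1b2 UMIs, and 5 held both Tbr1 and Gucy1b2.

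Of the 32 barcodes with at least 3 Taar UMIs that lay beyond the Omp or Cyp2g1 limits, 8 had a Tbr1 UMI.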
